A study of Mus musculus with 44 samples.

Results

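Neurons kept for 10 days in vitro (DIV10) were compared with neurons kept for 14 days (DIV14), both without stimulation. The comparison rests on 6 of the 44 samples of the series, chosen by their labels: each of the 2 unstimulated cultures had 1 RNA-seq library, 1 ribosome-profiling library and 1 TAIL-seq library. Both cultures held primary cortical neurons from newborn C57BL/6J mouse pups of both sexes, several animals were mixed in each sample, and both had been exposed early to cytosine arabinoside, which kills dividing cells. Neither carried a transgene. The DIV10 culture was the untreated control of an experiment with KCl, whereas the DIV14 culture was the untreated control of an experiment with BDNF and with glutamate and glycine (glu/gly), so days in vitro and experiment cannot be told apart. For reference, 2 further DIV10 cultures had been treated with KCl for 10 min or 30 min, and 5 further DIV14 cultures had been treated with BDNF or glu/gly or had been transduced with lentivirus expressing GFP, miR-1 or miR-155. These treated cultures were not replicates of the unstimulated ones.

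Cortical neurons from newborn pups extend axons and dendrites in the dish, then assemble synapses and acquire the ion channels and receptor subunits of mature neurons. Among the best-known subunit exchanges of this period are that of the NMDA receptor, in which Grin2a joins Grin2b, and that of the chloride transporters, in which Slc12a5 (KCC2), which exports chloride, increases relative to Slc12a2 (NKCC1), which imports it. Astrocytes and other dividing cells that come along with the neurons contribute RNA as well. In bulk samples such as these, fewer cells of a type and less RNA per cell cannot be told apart.

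RNA-seq reads measure the mRNA of a gene, ribosome-protected fragments (RPFs) measure the ribosomes on its coding sequence, and TAIL-seq reports a tag for each mRNA 3′ end together with the length of its poly(A) tail. Translational efficiency (TE) is the log2 ratio of RPFs to RNA-seq reads. Levels are given in cpm, counts scaled to the total of reads on genes in a library, and differences as log2 ratios of DIV14 over DIV10. RNA-seq reads on genes numbered 1191140 at DIV10 and 508771 at DIV14, RPFs 9477806 and 4337282, and TAIL-seq tags 604775 and 1042761. With 1 library per assay and culture there was no replicate check and no test across cultures, and the 95% intervals below cover counting error only. A difference was counted when it was at least 2-fold.

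The cultures differed in both directions by RNA and by RPFs. Of 5061 mRNAs with a mean of at least 10 RPM, 114 (2.25%) were past 2-fold higher at DIV14 and 151 (2.98%) past 2-fold lower, with a median difference of 0.01. Of 8036 genes with as many RPFs, 318 (3.96%) were higher and 359 (4.47%) lower, with a median of -0.03. Under the authors' RPM scaling the balance turned, with 565 higher and 210 lower by RPFs. TAIL-seq tags, another measure of mRNA abundance, put 154 (4.16%) of 3699 genes higher and 106 (2.87%) lower, 7.03% in either direction. For scale, cultures of the same age were compared by the same rule. KCl for 10 min against the DIV10 culture gave 0.31% of mRNAs, 2.75% of RPF genes and 0.322% of tag genes past 2-fold in either direction. GFP against the DIV14 culture gave 1.98%, 1.62% and 2.35%. Between the ages the shares for RNA and RPFs were 5.24% and 8.42%, above those of either same-age pair. Across 2866 genes measured by all 3 assays, the differences had a Spearman correlation of 0.68 for RNA and RPFs, 0.61 for RNA and tags, and 0.72 for RPFs and tags, which describes genes of the same 2 cultures.

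The 10 mRNAs whose intervals lay farthest above no difference included some for secreted, cell-surface or synaptic-vesicle proteins. Ccn3 (chr15:54745910-54753762 in GRCm38.p6), which encodes a secreted matricellular protein, had 141 RNA-seq reads at DIV10 and 274 at DIV14, or 118 and 539 cpm, a 4.55-fold difference (95% interval 3.70 to 5.61). Its RPFs stood at 132, 167 and 161 cpm in the unstimulated, 10-min and 30-min KCl cultures of DIV10 and at 708, 529, 739 and 717 cpm in the unstimulated, GFP, BDNF and glu/gly cultures of DIV14. All DIV14 values lay above all DIV10 values. As background for such cases, 31.2% of all RPF genes had the 3 treated DIV14 cultures above both treated DIV10 cultures and 35.9% had them below. Icam5, the telencephalic adhesion molecule of dendrites, was 4.56-fold higher by RNA (3.70 to 5.65) and 4.96-fold higher by RPFs. Calb1, the calcium buffer calbindin, was 5.08-fold higher by RNA and 5.09-fold higher by RPFs. Thus for these 3 genes both assays gave nearly the same ratio. The other 7 of the 10 were Sv2b, a synaptic-vesicle glycoprotein (log2 RNA difference 1.90), Lypd1 (2.08), the orphan receptor Gpr158 (2.11), the inositol kinase Itpka (1.99), Pex5l (1.87), the prohormone convertase Pcsk2 (1.66) and the calcium sensor hippocalcin, Hpca (1.78).

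RPFs ranked activity-regulated transcription factors and a neuropeptide among their leading genes. Vip (chr10:5639218-5647617), which encodes vasoactive intestinal peptide of a class of interneurons, had 22 RPFs at DIV10 and 243 at DIV14, a 24.1-fold difference (15.6 to 39.2). In cpm of RPFs, Vip stood at 2.3, 2.4 and 7.5 in the 3 DIV10 cultures and at 56.0, 74.2, 60.3 and 57.3 in the 4 DIV14 cultures, without overlap. Gpr158 was 7.79-fold higher by RPFs, the acid-sensing channel subunit Asic4 6.85-fold, and the sodium-channel subunit Scn2b 6.20-fold, and Gpr158 and Scn2b were also past 2-fold by RNA-seq, where Asic4 was below the filter. Rasal1, a Ras GTPase-activating protein, had 41 RPFs at DIV10 and 142 at DIV14.

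The genes farthest below no difference by RPFs included several for matrix and scaffold proteins. Ahnak (chr19:8989284-9019196), a giant scaffold protein, had 626 cpm of RPFs at DIV10 and 102 cpm at DIV14 and was 6.11-fold lower. The other DIV10 cultures had 453 and 233 cpm, and the other DIV14 cultures had 75.6, 84.4 and 69.7 cpm. Col1a1 and Col1a2, the chains of type I collagen, were 6.08-fold and 5.39-fold lower by RPFs, but by RNA they had 26 and 34 reads at DIV10 and 11 and 24 at DIV14, which gave log2 ratios of -0.01 (-1.18 to 1.05) and 0.72 (-0.09 to 1.52). Neither RNA interval included the RPF difference, although both mRNAs were below the abundance filter. Acan, the proteoglycan aggrecan, had 3869 RPFs and 307 RPFs, a log2 ratio of -2.53. RNA-seq counted 83 reads of Acan at DIV10 and 3 at DIV14, below the filter for mRNAs. Dlk1, Ltbp2, Adamtsl3, Klhl4 and Mmp2 were also among the leading genes, with log2 ratios of RPFs between -2.26 (Mmp2, a matrix metalloprotease) and -2.70 (Dlk1, a Notch-related ligand). Igfbp2, which binds insulin-like growth factors, was among the most precisely measured, with 3490 and 1244 cpm of RPFs and log2 ratios of -1.47 by RNA, -1.49 by RPFs and -1.53 by tags. RPFs of Igfbp2 in the KCl cultures were 3292 and 2178 cpm, and those in the GFP, BDNF and glu/gly cultures were 746, 618 and 745 cpm, so the ages did not overlap.

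Not every mRNA that was lower by RNA-seq was lower by the other assays. Of the 151 mRNAs past 2-fold lower, 71 were also past 2-fold lower by RPFs and 22 had the opposite sign, whereas of the 114 higher mRNAs, 76 were past 2-fold higher by RPFs and 2 had the opposite sign. Nav1, a microtubule-binding protein of growing neurites, had 244 and 19 RNA-seq reads (log2 ratio -2.46) but a log2 ratio of 0.06 by RPFs and -0.16 by tags. The postsynaptic scaffold Shank1 (-2.13 by RNA, 0.56 by RPFs) and the histone methyltransferase Kmt2d (-2.06 by RNA, 0.11 by RPFs) behaved alike, as did Dpysl5, a collapsin-response protein of growth cones (-1.81 by RNA, -0.41 by RPFs). The largest ratio by RNA, for the cell-cycle phosphatase Cdc25a, came from 122 and 3 reads (log2 ratio -4.12, -6.42 to -2.54). Cdc25a was at 102 cpm in the unstimulated DIV10 culture, 20.7 and 26.1 in the KCl cultures and between 3.3 and 32.2 in the 6 DIV14 cultures, so the library of the unstimulated DIV10 culture stood apart for this gene. Col5a2, Flna and Col4a5 were lower in both assays, with log2 ratios between -2.26 (Col5a2) and -1.75 (Flna) by RNA and the smallest by RPFs at -1.70 (Col4a5).

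Synaptic and channel genes were shifted upward as groups. Each list was described by the median log2 RPF difference of its measured members, beside the median of -0.03 over all 8036 genes. Of all these genes, 3.96% were past 2-fold higher and 4.47% past 2-fold lower. List counts by RPFs are to be read beside these shares. Of 32 measured genes for sodium, potassium and calcium channels, all had positive log2 differences and 12 were past 2-fold higher, with a median of 0.88. The channel members with the largest differences were Scn2b (2.63), the M-current subunit Kcnq3 (1.81), the A-type channel partner Kcnip4 (1.58), the potassium-channel beta subunit Kcnab2 (1.54) and Kcna1 (1.48), and the smallest was that of Kcnd2 (0.02). Presynaptic genes had a median of 0.69, with 7 of 29 past 2-fold higher and none lower. The vesicular glutamate transporter Slc17a7 (1.99), Sv2b (1.90), the vesicle protein Syngr1 (1.51), the synapsin Syn2 (1.36) and synaptophysin, Syp (1.33), led them, whereas the active-zone scaffolds Pclo (-0.08) and Rims1 (-0.12) were near 0. Postsynaptic scaffolds and glutamate receptors had a median of 0.67, with 12 of 37 past 2-fold higher. Camk2a, the kinase abundant at excitatory synapses, was 4.03-fold higher (3.86 to 4.21), from 349, 320 and 380 cpm of RPFs at DIV10 to 1408, 1519, 1632 and 1438 cpm at DIV14. Homer3 was the exception on this list, with a log2 ratio of -0.99.

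Summed over the members, RPFs of the channel list were at 2117, 1923 and 2113 cpm in the DIV10 cultures and at 3709, 4311, 4240 and 4553 cpm in the DIV14 cultures (unstimulated, GFP, BDNF and glu/gly). Presynaptic genes summed to between 8926 and 9738 cpm at DIV10 and between 15408 and 16579 cpm at DIV14, and postsynaptic genes to between 6318 and 7104 cpm and between 11206 and 12771 cpm. For these 3 lists the cultures of the 2 ages did not overlap. The same lists by RNA-seq had medians of 0.59, 0.59 and 0.46 (channels, presynaptic and postsynaptic), beside 0.01 over all mRNAs. By tags the medians were 0.55, 0.64 and 0.75. Not all members were higher by RNA-seq: 6 of 22 channel, 7 of 27 presynaptic and 6 of 28 postsynaptic genes were below 0. Past 2-fold by RNA-seq, 4, 6 and 3 genes of the lists were higher and 0, 3 and 1 lower. Over all mRNAs, 2.25% were past 2-fold higher and 2.98% past 2-fold lower.

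**Figure D1:**
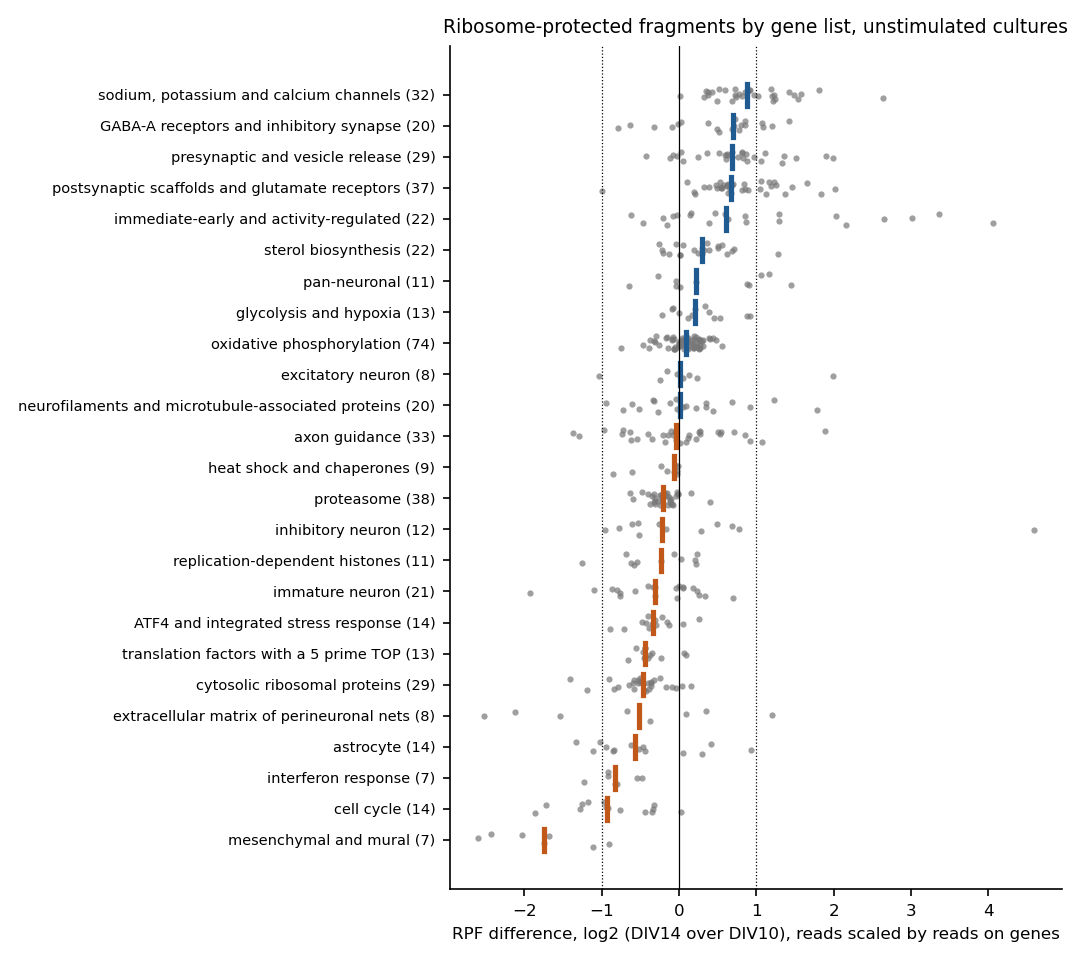
RPF difference of each measured gene (grey points) by gene list, on a log2 scale of DIV14 over DIV10 in the unstimulated cultures, with the number of genes in brackets. Thick bars are medians (blue above 0, orange below) and dotted lines mark 2-fold; channel and synaptic lists have medians of 0.67 to 0.88, and the cell-cycle and mesenchymal lists have medians of -0.94 and -1.75.

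The receptor-subunit pairs differed in the size of their RPF differences. Grin2a, the mature NMDA-receptor subunit, stood at 23.7, 19.2 and 18.7 cpm at DIV10 and at 61.1, 72.9, 64.9 and 64.7 cpm at DIV14, a log2 difference of 1.36 (1.10 to 1.63) between the unstimulated cultures. Grin2b, the subunit that predominates early, had a log2 difference of 0.58 (0.51 to 0.65), so it too was higher at DIV14, and the interval of Grin2a lay above that of Grin2b. RNA-seq gave 0.73 for Grin2a and 0.26 for Grin2b. Slc12a5 had a log2 difference of 1.21 (1.14 to 1.27), from 371, 468 and 477 cpm to 857, 978, 993 and 1100 cpm. Slc12a2 went the other way, with -0.79 (-1.0 to -0.58), from 93.4, 84.7 and 91.2 cpm to 54.2, 71.5, 64.6 and 65.8 cpm. Neither transporter overlapped between ages, as was the case in the treated cultures for 31.2% (higher) and 35.9% (lower) of all RPF genes. Among the alpha subunits of the GABA-A receptor, Gabra3 had a log2 RPF difference of 0.71 (0.52 to 0.90) and Gabra5 of 0.52 (0.32 to 0.71), and Gabra2, the subunit that predominates early, had 0.03 (-0.20 to 0.25). Gabra2 levels of 54.9, 65.8 and 80.4 cpm at DIV10 and 56.0, 88.5, 62.7 and 65.4 cpm at DIV14 overlapped. On the list of 20 GABA-A and inhibitory-synapse genes, the median was 0.70 and 4 were past 2-fold higher, beside 3.96% of all RPF genes.

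**Figure D2:**
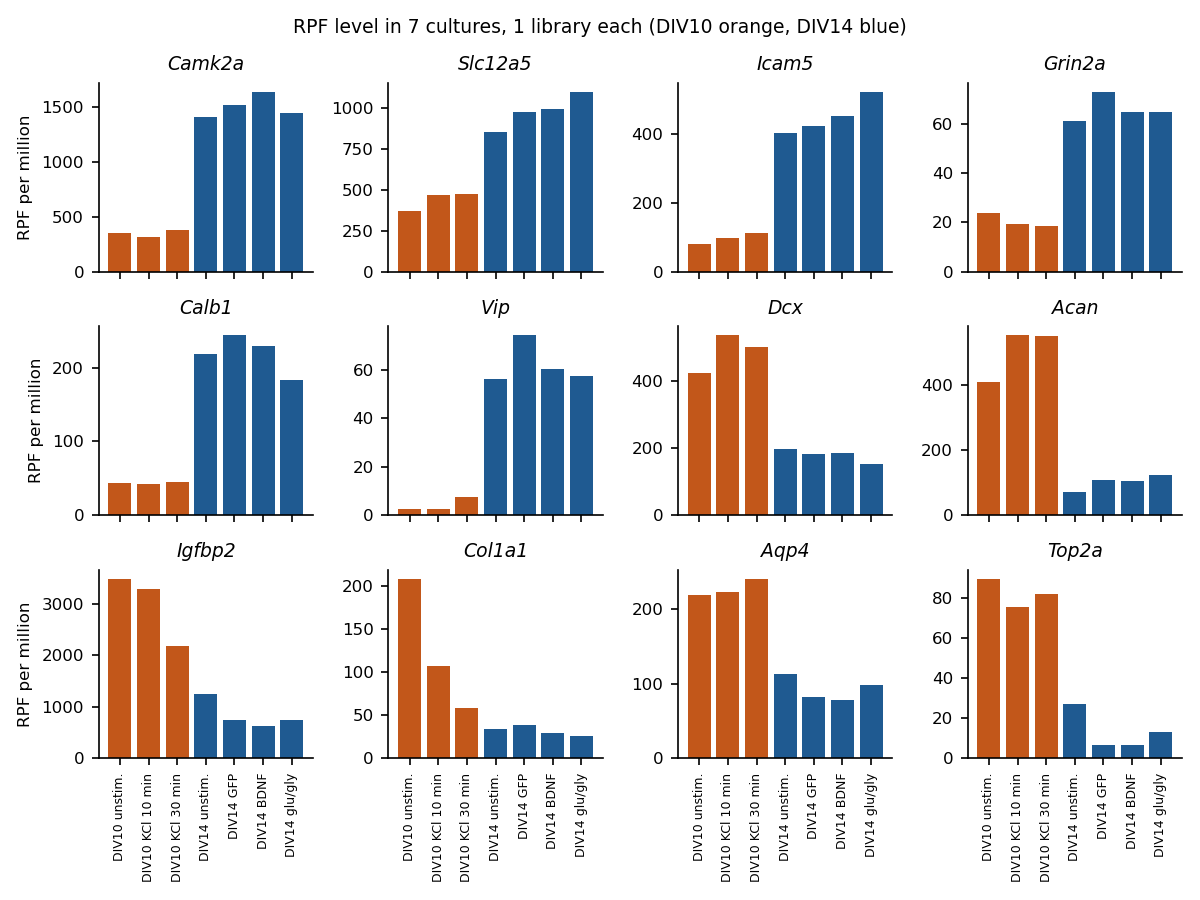
RPF level (cpm, linear axes from 0) of 12 genes in the 3 DIV10 cultures (orange) and 4 DIV14 cultures (blue), 1 library each. Camk2a, Slc12a5, Icam5, Grin2a, Calb1 and Vip are higher in each DIV14 culture than in any DIV10 culture, and the remaining 6 genes, from Dcx to Top2a, are lower in each.

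Genes of immature neurons gave a mixed picture. The median RPF difference of 21 measured genes on that list was -0.31, with 2 past 2-fold lower and none higher. Over all RPF genes, 4.47% were past 2-fold lower and 3.96% higher. Doublecortin, Dcx, a microtubule protein of migrating neurons, stood at 424, 536 and 503 cpm at DIV10 and at 198, 183, 184 and 153 cpm at DIV14, a log2 difference of -1.10. Igfbpl1 (-1.93), the transcription factor Sox4 (-0.87) and the growth factor midkine, Mdk (-0.80), were also lower, whereas the imprinted gene Nnat (0.70) and the growth-cone protein Gap43 (0.18) had positive values. Neurofilament and microtubule genes spread around 0 by RPFs (median 0.01 of 20), with Tuba4a (1.79) and Nefh (1.23) past 2-fold higher, and Sptbn1 (-0.94), Mapt (-0.72) and Map1b (-0.52) below 0. By RNA-seq, 6 of 18 genes on this list were past 2-fold lower, beside 2.98% of all mRNAs, with a median of -0.37. Tags went the other way, with a median of 0.24, 11 of 14 genes above 0, 2 past 2-fold higher and 0 lower. Over all tag genes, 4.16% were past 2-fold higher and 2.87% lower. Axon-guidance genes had a median of -0.04, which became 0.17 under the authors' scaling and 0.05 under TMM. On that list Slit3 (1.88) and the netrin receptor Unc5a (1.07) were past 2-fold higher, and Slit2 (-1.37) and Sema3e (-1.30) past 2-fold lower.

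Mesenchymal and cell-cycle markers had the lowest medians of the lists with at least 7 measured genes, and astrocyte markers were mixed. Of the 7 measured mesenchymal and mural genes, all had negative log2 RPF differences and 6 were past 2-fold lower, with a median of -1.75. Over all RPF genes, 4.47% were past 2-fold lower, with a median of -0.03. Fibronectin, Fn1, stood at 531, 355 and 265 cpm at DIV10 and at 129, 60.0, 66.3 and 80.0 cpm at DIV14. Of the 14 measured cell-cycle genes, 5 were past 2-fold lower (median -0.94), among them Cenpf (-1.86), Top2a (-1.72), Cdk1 (-1.28) and Mki67 (-1.25), while the cyclin Ccnd1 had 0.02. Of the 14 measured astrocyte genes, 3 were past 2-fold lower (median -0.57): vimentin, Vim (-1.34), the gap-junction protein Gja1 (-1.12) and clusterin, Clu (-1.02). The water channel Aqp4 (-0.95) followed, and the glutamate transporter Slc1a2 (0.93) and the enzymes Aldoc (0.41) and Glul (0.30) had positive values, so the astrocyte list did not move as 1 block. Perineuronal-net matrix genes were split as well, with Acan, Vcan (-2.13) and Tnc (-1.54) past 2-fold lower and Tnr (1.20) past 2-fold higher.

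These lists also differed among cultures of the same age, which bears on every value above that such cells could contribute. Mesenchymal genes summed to 1953, 1193 and 923 cpm of RPFs in the unstimulated, 10-min and 30-min cultures of DIV10 and to 600, 328, 318 and 360 cpm in the unstimulated, GFP, BDNF and glu/gly cultures of DIV14. Astrocyte genes summed to 13813, 14363 and 13687 cpm and to 8217, 5784, 5917 and 6940 cpm. Both lists were without overlap between ages. The 12 microglial markers summed to at most 51.4 cpm, and none passed the filter. The 7 endothelial markers summed to 130, 123 and 102 cpm and to 45.0, 28.8, 22.4 and 24.5 cpm, and of these only Kdr was measured (-1.60). Oligodendrocyte-lineage markers summed to 408 cpm of RPFs at DIV10 and 391 cpm at DIV14 and to 264 and 291 cpm of RNA, with Cspg4 (-1.17) lower and Enpp2 (1.35) higher. Pan-neuronal markers had a median of 0.22, with Thy1 (1.44), Rbfox3 (1.16) and Snap25 (1.06) past 2-fold higher and 4 of 11 below 0, the lowest Elavl2 (-0.64) and Map2 (-0.27). The part of cell composition in the differences of other genes was not tested.

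Neuronal subtype markers did not shift together. Of 12 measured inhibitory markers, the median was -0.22, and only Vip was past 2-fold. Gad1 (0.77), Slc32a1 (0.68) and Gad2 (0.49), which make or load GABA, had positive values, and Sst (-0.61), Reln (-0.54), Dlx1 (-0.77) and Dlx2 (-0.95) had negative values. Of 8 excitatory markers (median 0.01), Slc17a7 was past 2-fold higher and 1 was past 2-fold lower (-1.04), with 4 above 0 and 4 below. Over all RPF genes, 3.96% were past 2-fold higher and 4.47% past 2-fold lower.

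Of 22 measured genes on the immediate-early and activity-regulated list, 8 were past 2-fold higher by RPFs in the unstimulated DIV14 culture and none lower. The list had a median of 0.61. Of the 22, 6 were below 0, among them Ier5 (-0.63) and Scg2 (-0.46). Over all RPF genes, 3.96% were past 2-fold higher. By tags, 4 of 13 measured genes of the list were past 2-fold higher, beside 4.16% of all tag genes, and 5 were below 0. The RNA of the whole list summed to 1562 cpm at DIV10 and 1537 cpm at DIV14. Egr1, a zinc-finger factor induced within minutes by activity, stood at 36.0 cpm in the unstimulated DIV10 culture and at 83.8 and 704 cpm after 10 min and 30 min of KCl. At DIV14 it stood at 290 cpm in the unstimulated culture, 386 with GFP, 1438 with BDNF and 846 with glu/gly. The unstimulated DIV14 value of Egr1 was therefore 8.05-fold (7.14 to 9.10) above the unstimulated DIV10 value and below that of DIV10 neurons in KCl for 30 min. Egr4 was 16.7-fold (12.0 to 23.7) and Nr4a1 10.3-fold (7.01 to 15.4) higher, from 41 and 33 RPFs at DIV10, and Arc 6.30-fold and Egr3 4.45-fold. By RNA-seq these 5 genes had at most 15 reads in either library, so their mRNA difference was not measured well. Tags of Egr1 numbered 33 at DIV10 and 213 at DIV14, a log2 ratio of 1.90. Summed over the whole list, RPFs were at 2179, 2863 and 5847 cpm at DIV10 and at 3189, 4011, 9440 and 6718 cpm at DIV14, and the ages overlapped.

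Few genes of the housekeeping and stress-response lists were past 2-fold. Over all RPF genes, 3.96% were past 2-fold higher and 4.47% past 2-fold lower. Counts of short lists near these shares are no result about their members. None of 74 measured oxidative-phosphorylation genes was past 2-fold by RPFs (median 0.09), none of 38 proteasome genes (-0.21), none of 13 translation factors with a 5′ terminal oligopyrimidine tract (-0.44), and 2 of 29 ribosomal-protein genes were past 2-fold lower (-0.46). Of the ribosomal-protein genes, 27 of 29 had negative RPF differences, and 36 of 39 had negative tag differences, with Rps15a (-1.41) and Rpl37 (-1.19) the lowest by RPFs. Replication-dependent histone genes had a median of -0.23 of 11, with 1 past 2-fold lower. Sterol-synthesis genes had a median of 0.30, with Ebp (1.27) past 2-fold, and glycolysis genes had a median of 0.21. RPFs of the sterol list summed to 5162, 5796 and 6626 cpm in the DIV10 cultures. At DIV14 they summed to 5962, 4012, 7340 and 7132 cpm (unstimulated, GFP, BDNF and glu/gly), so the ages overlapped. Targets of ATF4 had a median of -0.34 of 14, with Psat1 (-0.90) and Shmt2 (-0.72) the lowest, and interferon-response genes a median of -0.83 of 7, with Ifit1 (-1.23) past 2-fold lower. Interferon-response genes summed to 486, 324 and 261 cpm of RPFs at DIV10 and to 274, 134, 166 and 178 cpm at DIV14, and these ranges overlapped. Proteasome and heat-shock medians changed sign with the scaling, to 0.01 and 0.15 under the authors' RPM scaling.

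TE was compared for 4500 genes with at least 10 RPM of RNA-seq in both libraries. TE levels of the 2 cultures had a Spearman correlation of 0.92 across genes, and the range from the 1st to the 99th percentile was 27.5-fold at DIV10 and 37.2-fold at DIV14. The median TE difference was -0.03 and its SD across genes was 0.37, against 0.26 from counting alone. The 44 genes (0.978%) past 2-fold higher at DIV14 outnumbered the 16 (0.356%) past 2-fold lower. The same-age pairs gave 6.36% of genes past 2-fold in either direction for KCl for 10 min and 1.33% for GFP, compared with 1.33% between the unstimulated cultures. The share of TE genes past 2-fold was thus no larger than that between cultures of the same age.

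Several of the genes leading the higher group encode synaptic or cytoskeletal proteins of neurons: the tubulin Tubb4a (log2 TE difference 2.35, 1.81 to 2.89), the synapsin Syn1 (2.05, 1.44 to 2.66), the active-zone scaffold Bsn (1.77, 1.30 to 2.25) and the microtubule-associated protein Map1a (1.50, 1.19 to 1.80). Prrc2a (1.69), the calcium-release channel Ryr2 (1.58) and the kinase Prkce (1.42) were also among them. Tubb4a had 202 and 32 RNA-seq reads and 4888 and 4231 RPFs, so its RNA was lower at DIV14 (log2 ratio -1.43) and its RPFs higher (0.92). Syn1 had 158 and 25 RNA-seq reads (-1.43) and 5390 and 3786 RPFs (0.62). This combination was common in the group. Of the 44 genes, 35 had a negative RNA difference and 42 a positive RPF difference, with medians of -0.58 and 0.66. The choice of these genes by TE also favours both signs. Of the 30 with enough tags, 27 had a positive tag difference (median 0.66), opposite in sign to RNA-seq.

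The denominator of TE therefore mattered for this group. With TAIL-seq tags as the denominator, tried after the data were seen, 2189 genes could be compared. Of these, 19 were past 2-fold higher by RNA-seq, none of the 19 was past 2-fold by tags, 10 were above 0, and their median went from 1.22 to 0.02. By tags, 9 genes were past 2-fold higher and 1 lower, and the 2 versions of the TE difference had a Spearman correlation of 0.32 across genes.

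The levels of the 44 genes in each culture showed which libraries carried the difference. Their median log2 TE was 0.68, 0.77 and 0.96 in the unstimulated, 10-min and 30-min DIV10 cultures. At DIV14 it was 2.16 in the unstimulated culture, 2.10 with GFP, 1.95 with BDNF and 0.86 with glu/gly, so the glu/gly culture lay within the DIV10 range. Their median RPF level was 265, 260 and 247 cpm at DIV10 and 382, 382, 418 and 392 cpm at DIV14, without overlap. Their median RNA level was 124, 119 and 115 cpm at DIV10, 76.7, 77.0, 87.6, 79.0 and 86.7 cpm in the unstimulated, GFP, BDNF, miR-1 and miR-155 cultures of DIV14, and 156 cpm with glu/gly. Thus the RNA-seq library of the glu/gly culture differed from the other 5 of its age for these genes. Syn1 was an instance, with 133, 106 and 132 cpm of RNA at DIV10, 49.1, 40.2, 39.6, 53.7 and 54.5 cpm in the same 5 cultures of DIV14, and 153 cpm with glu/gly. By tags Syn1 had 188 cpm at DIV10 and 195 cpm at DIV14.

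**Figure D3:**
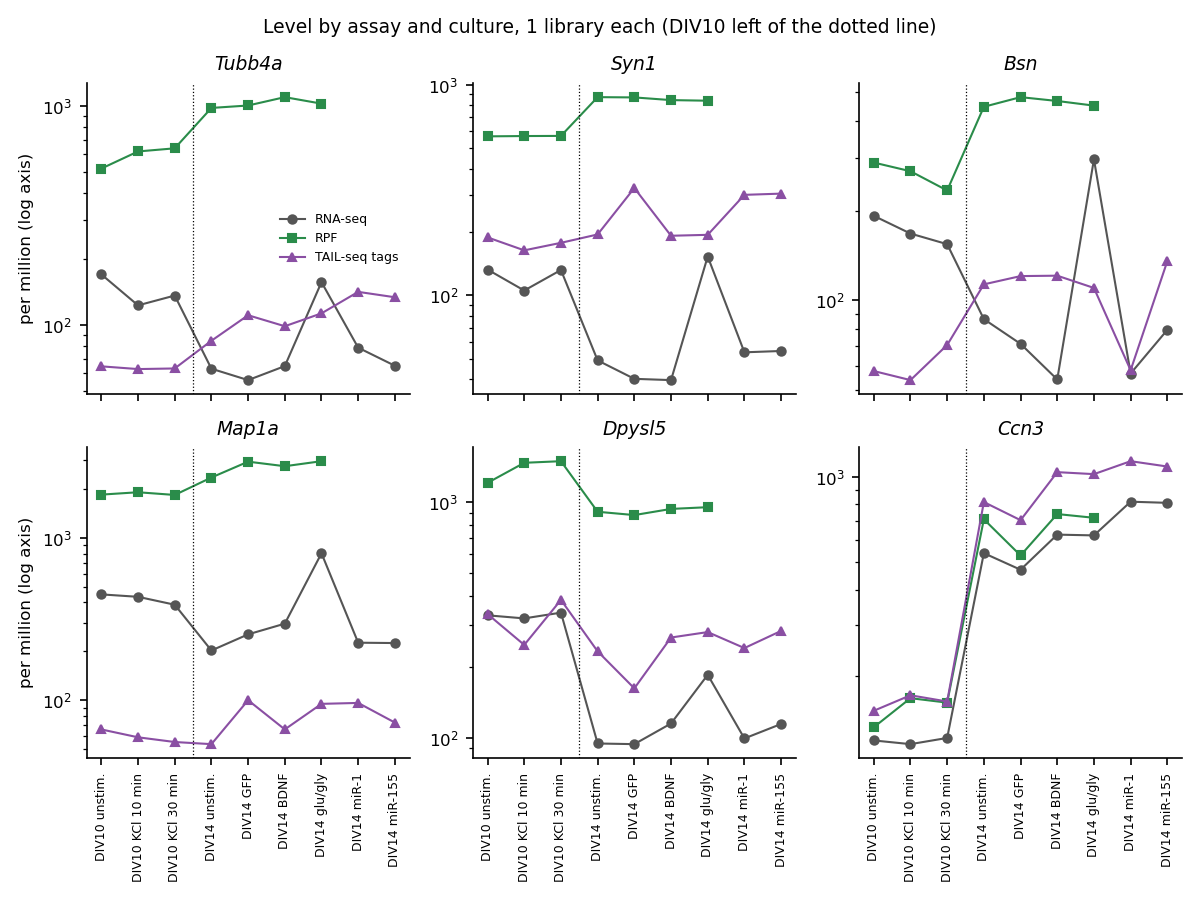
Levels (cpm, log axes) of 4 genes with higher TE and of Dpysl5 and Ccn3 by RNA-seq (circles), RPFs (squares) and TAIL-seq tags (triangles), with DIV10 cultures left of the dotted line and 1 library per point. For Syn1, RNA-seq falls between 39.6 and 54.5 cpm in 5 DIV14 cultures and reaches 153 cpm with glu/gly, while RPFs and tags of that culture stay near the others.

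The 16 genes with lower TE at DIV14 included the nuclear-pore protein Tpr (-1.21, -1.49 to -0.93), the Golgi protein Golgb1 (-1.07), the dystrophin relative Utrn (-1.20), the spindle protein Ckap2 (-1.32), the lipid kinase Pik3c2a (-1.15) and the synaptic scaffold Dlg1 (-1.02), followed by Dnttip2, Pnn and Akap13. Median RNA and RPF differences of the 16 were 0.30 and -0.78, signs that the choice of these genes by TE also favours. Tpr had a log2 TE of -0.14 in the unstimulated DIV10 culture, -0.88 and -0.96 in the KCl cultures, and -1.35, -0.83, -0.95 and -1.19 in the DIV14 cultures (unstimulated, GFP, BDNF and glu/gly), so that the unstimulated DIV10 library stood apart and the other cultures of both ages overlapped. The medians of the 16 were -0.42 in the unstimulated DIV10 culture, -1.02 and -0.94 in the KCl cultures, -1.62 in the unstimulated DIV14 culture, and -1.12, -1.08 and -1.01 with GFP, BDNF and glu/gly. The 2 libraries that chose these genes were thus the highest and the lowest, and the other cultures of both ages lay between them.

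TE differences of the unstimulated cultures were compared with base composition at codon position 3. Across 4476 genes, the TE difference and the percentage of G or C at position 3 of the codons (GC3) had a Spearman correlation of 0.36. The RPF difference of the same genes had 0.23 and the RNA difference -0.06. The genes were divided by GC3 into 5 bins of equal size. From the lowest to the highest bin, the median TE difference was -0.22, -0.09, -0.03, 0.07 and 0.12. The 44 genes with higher TE lay in these bins as 2, 2, 6, 12 and 22, and the 16 with lower TE as 9, 3, 4, 0 and 0. Their median GC3 was 68.9% and 45.4%, beside 58.8% for all genes. The median coding sequence was 2289 nt in the higher group and 3993 nt in the lower group, beside 1680 nt. With tags as the denominator the correlation with GC3 was 0.31. In the GFP culture against the 10-min KCl culture, which share no library with the main pair, it was 0.081, and the bin medians were 0.02, -0.01, 0.01, 0.07 and 0.15. In the 10-min KCl culture against the unstimulated DIV10 culture, of the same age, it was 0.19. Within single cultures, TE levels and GC3 had Spearman correlations across genes of 0.12, 0.17 and 0.22 at DIV10 (unstimulated, 10-min and 30-min KCl) and of 0.22, 0.21, 0.15 and 0.25 at DIV14 (unstimulated, GFP, BDNF and glu/gly). The lowest was that of the unstimulated DIV10 culture, and the ages overlapped.

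Short stretches of coding sequence illustrate this difference in composition. Of the leading genes named above, the 3 with the highest GC3 among those with higher TE and the 3 with the lowest among those with lower TE were chosen to show the ends of the range. Each line gives 10 consecutive whole codons that lie in 1 exon past the 50 nt that the authors left out of each reading frame. Sequences run 5′ to 3′ on the coding strand in RefSeq's GRCm38.p6, with position 3 of each codon in capitals.
Tubb4a: ttCtgGgaGgtCatCagTgaTgaGcaCggC
Prkce: acAgcCtgGtcGctGcgCcaTgcGgtGggA
Bsn: ccCggAggCtcTggTctGggTccGggCccC
Pik3c2a: agAacCaaAgaTgtGaaCaaAgcAgaAgcG
Ckap2: gaTcaGaaAatGatAacAtcTgaGgaTcgG
Tpr: cgCgcTtcTccTtgCtcCttGgcTtcTccT
The stretches lie at chr17:57086310-57086339 (minus strand, Tubb4a), chr17:86168653-86168682 (plus, Prkce), chr9:108190178-108190207 (minus, Bsn), chr7:116418428-116418457 (minus, Pik3c2a), chr8:22177709-22177738 (minus, Ckap2) and chr1:150393442-150393471 (plus, Tpr). Of the 10 letters in capitals, 8 are G or C in Tubb4a, 7 in Prkce and 6 in Bsn, and 4 in each of Pik3c2a, Ckap2 and Tpr. Over the whole coding sequences, GC3 was 75.5%, 66.2%, 64.1%, 36.5%, 39.8% and 40.0% in the same order. Each count equals the GC3 of its whole coding sequence, rounded to 10 letters, and the genes were picked by GC3. The counts therefore illustrate the ends of the range and are no separate support for a difference. The groups were not uniform. Prrc2a with higher TE had 51.3%, and Golgb1 (56.3%) and Utrn (58.1%) with lower TE were near the median of all genes.

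Poly(A) tails were longer, in the median over genes, in the unstimulated DIV14 culture. For 2820 genes with at least 50 tags in both libraries, the mean tail length differed by a median of 6.93 nt, with an SD across genes of 7.42 nt. Over the 1630 genes with enough tags in all 9 cultures, the median of the mean tail lengths was 104 nt in the unstimulated, 104 nt in the 10-min and 106 nt in the 30-min DIV10 culture. It was 111 nt in the unstimulated DIV14 culture, 110 nt with BDNF, 106 nt with glu/gly, 102 nt with GFP, 102 nt with miR-155 and 100 nt with miR-1. The range within DIV14 thus contained all the DIV10 values. The GFP culture differed from the unstimulated DIV14 culture by a median of -8.45 nt, a larger shift than that between the unstimulated cultures, and the KCl 10-min culture differed from the unstimulated DIV10 culture by -0.16 nt. Of the synthetic standards with tails of known nominal length, 5 had at least 200 tags in both libraries. Those of 100 nt had means of 108.3 nt at DIV10 and 108.3 nt at DIV14 in set 1 and 103.2 and 104.6 nt in set 2. That of 150 nt in set 2 had 149.6 and 150.2 nt, and those of 200 nt had 187 and 188 nt in set 1 and 205 and 206 nt in set 2. Each of these 5 differed by less than the median of the mRNAs. Standards with fewer tags were less even: that of 30 nt in set 1 had 37.8 and 31.7 nt (162 and 410 tags), that of 50 nt in set 2 had 66.3 and 66.5 nt (78 and 170 tags), that of 150 nt in set 1 had 130.1 and 150.6 nt (10 and 31 tags), and that of 300 nt in set 2 had 158 and 190.0 nt (23 and 51 tags).

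Relative to the median shift, 66 genes (2.34%) had tails at least 15 nt longer and 72 (2.55%) at least 15 nt shorter. The same-age pairs gave 4.17% and 4.31% in either direction, beside 4.89% here. The spread depended on depth: its SD was 8.52 nt for genes with 50 to 100 tags in the shallower library, 6.42 nt for 100 to 200, 4.98 nt for 200 to 500 and 4.00 nt for 500 or more. For KCl 10 min the same bins had 8.47, 6.10, 4.52 and 2.83 nt. Tail lengths per gene are deposited as means and medians without a spread, so no interval could be given.

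Among the 20 genes farthest from the median shift, those with tails in other cultures did not all keep the difference. Ccn3, whose mRNA was higher at DIV14, had a mean tail of 130.5 nt at DIV10 and 109.5 nt at DIV14. In the KCl cultures the Ccn3 tail was 118 and 124 nt, and in the other DIV14 cultures it was 109.5, 109, 104, 98.2 and 104 nt, so all DIV14 values lay below all DIV10 values. Acsl3, a fatty-acid ligase, had 113 and 96.5 nt, and 98.7 and 104 nt in the KCl cultures, which overlapped with the 87.6 to 99.9 nt of DIV14. Psma4, a proteasome subunit, had 83.6 nt at DIV10 and 118 nt at DIV14, and 91.5 nt with KCl for 30 min against 127 and 117 nt with BDNF and glu/gly. The neuropeptide gene Npy had 143, 135 and 141 nt at DIV10 and 171, 158, 144 and 149 nt at DIV14 (unstimulated, BDNF, glu/gly and miR-155). A2m, an astrocytic protease inhibitor, had 115 and 93.4 nt, with 114 and 116 nt in the KCl cultures and too few tags in the others of DIV14. Of the 20 genes, all but Acsl3 had fewer than 100 tags at DIV10. Among genes with at least 500 tags in both libraries, examined after their values were seen, the matrix protein Sparc went from 138 to 128 nt, Apoe from 97.7 to 93.6 nt and Eef1a1 from 77.7 to 72.8 nt against the general shift, and the vesicle protein Vamp2 went from 120 to 135 nt with it. TE and tail differences had a Spearman correlation of 0.02 across 2189 genes.

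**Figure D4:**
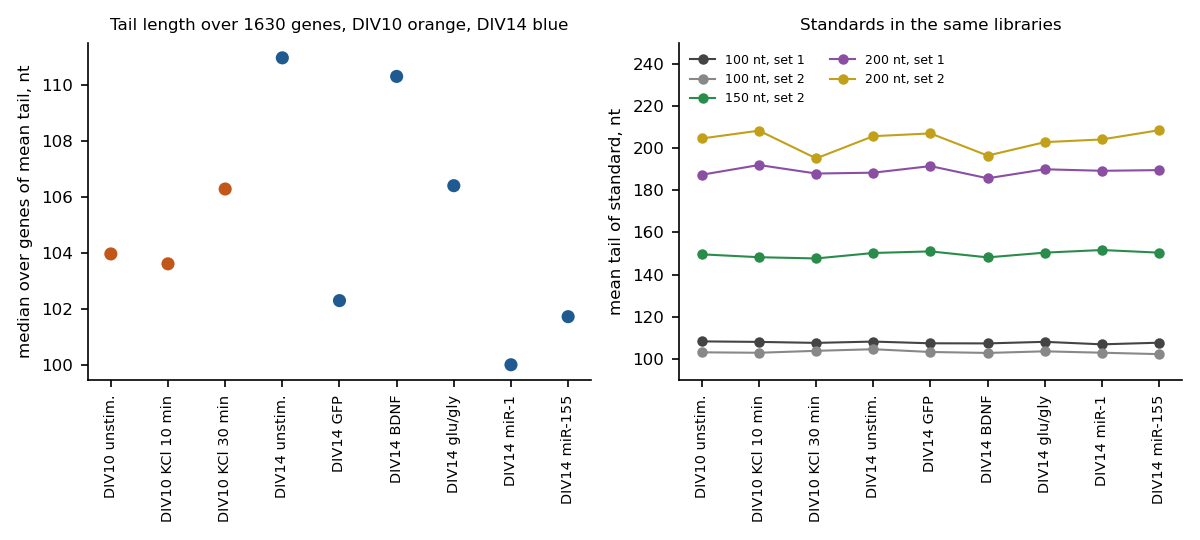
Left, the median over 1630 genes of the mean tail length (nt, axis not from 0) in each culture, DIV10 in orange and DIV14 in blue; right, the mean length (nt) of 5 synthetic standards in the same libraries. The gene median is 104 nt in the unstimulated DIV10 culture and 111 nt in the unstimulated DIV14 culture, and the standard of 100 nt in set 1 has 108.3 nt in both.

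Libraries that the main comparison does not use were examined for the same genes. Of the 114 mRNAs past 2-fold higher, 101 had all 5 other DIV14 cultures above both other DIV10 cultures, and of the 151 lower, 103 had all below, beside 16.6% and 18% of all mRNAs. For RPFs, with 3 other DIV14 cultures, the counts were 308 of 318 and 338 of 359, beside 31.2% and 35.9%, and for tags 129 of 154 and 86 of 106, beside 19.3% and 21.5%. The GFP culture against the 10-min KCl culture, a pair chosen after the data were seen, gave 8.84% of mRNAs, 17% of RPF genes, 8.1% of tag genes and 9.98% of TE genes past 2-fold, and 6.54% of tails past 15 nt. Of the genes past 2-fold in the main comparison that were also measured in this pair, 97 of 100 higher and 122 of 126 lower mRNAs had the same sign, beside 50.2% and 49.8% of all mRNAs. For RPFs the counts were 305 of 307 and 276 of 282, beside 49.9% and 50.1%, and for tags 82 of 83 and 48 of 52, beside 51.8% and 48.2%. Of the genes with higher TE, 32 of 33 had the same sign and 21 were past 2-fold, beside 52.7% and 8.54% of all genes. Of those with lower TE, 4 of 11 had the same sign and 0 were past 2-fold, beside 47.3% and 1.09%. Of the genes with tails at least 15 nt longer or shorter, 14 of 23 and 14 of 29 had the same sign, beside 49.9% and 50.1% of all genes, and 0 and 2 were past 15 nt, beside 2.67% and 3.64%. In this pair too, the cultures of each age came from different experiments and had been treated differently.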

How the data were processed

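The authors deposited, for RNA-seq and ribosome profiling, a read count per gene and its RPM value, from reads in the reading frame of 1 transcript per gene without the first 50 nt. For TAIL-seq the authors deposited a tag count with mean and median tail length in nt per gene, measured with a hidden Markov model. Their table of log2 TE values, deposited per culture, served as an alternative only. The submitters' processing notes name STAR 2.4.2 and bedtools, and the paper gives mm10 as the genome. The authors' RPM total exceeds the reads on listed genes, which made up 19.5% and 21.6% of it for RNA-seq and 58.3% and 67.5% for RPFs (DIV10 and DIV14).

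Here counts were scaled by the reads on genes, and synthetic standards (11.2% and 10.1% of TAIL-seq tags) were left out. The sources do not state ribosomal-RNA depletion for every culture, nor which cultures shared a preparation batch. No test was possible with 1 library per group. RNA and RPF differences used genes with a mean of at least 10 RPM, tags a mean of at least 50 tags, TE at least 10 RPM in both RNA-seq libraries and at least 1 RPF, and tails at least 50 tags in both. Ratios carry Clopper-Pearson 95% intervals (scipy 1.17.1), and TE intervals used a normal approximation from the 4 counts. Named genes were the 10 in each direction past 2-fold whose nearer interval bound lay farthest from no difference (tails: farthest from the median), the extreme and defining members of 28 gene lists, and the receptor pairs. Members and lists were chosen with earlier results of these data known. Of 16678 accessions, 16540 matched RefSeq symbols on GRCm38.p6 and 16506 had an intact coding sequence. Scripts (Python 3.11.15, R 4.3.3) were tested on simulated data. TMM factors came from edgeR 4.0.16 and size factors from DESeq2 1.42.0. The RPFs of 2 lentiviral cultures, whose labels contradict each other, and all tissue and visual-cortex files were not used here. Some genes that the rule names are not reported here.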

Additional observations from a re-analysis of the deposited data

How the results depend on the processing

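No paired analysis was possible because each group had 1 library per assay. Leaving out a library was not possible for the same reason. Scaling moved the median of all genes by 0.14 (RNA) and 0.21 (RPFs) under the authors' RPM, by 0.05, 0.09 and 0.13 (RNA, RPFs and tags) under TMM, and by 0.07, 0.09 and 0.13 under DESeq2 size factors. Under the authors' RPM, 191 mRNAs were higher, 565 RPF genes higher and 210 lower, and 8 genes had lower TE. TMM and size factors each put 68 genes lower by tags. Filters set many counts: at least 10 RPM in both left 61 mRNAs higher and 72 lower, a mean of 30 RPM left 35 and 31 mRNAs and 174 and 167 RPF genes, and 1 read in both gave 851 and 1393 mRNAs and 964 and 1519 RPF genes. A mean of 20 tags gave 292 higher and 303 lower. TE with at least 30 RPM left 3 and 2 genes and a correlation with GC3 of 0.443, and at least 5 RPM gave 123 and 72. Tails with at least 100 tags gave 12 and 7 genes and a median of 6.28 nt, with at least 200 tags 2 and 3 genes and 5.72 nt, and without subtracting the median 379 and 12. Fewer genes entered under the stricter filters.

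Alternatives chosen after seeing the data were these. Tags in place of RNA-seq left 9 and 1 genes past 2-fold in TE, with a correlation of 0.31 with GC3. The middle bin of GC3 held 6 and 4. GFP against KCl 10 min gave 270 mRNAs lower, 741 and 539 RPF genes, 80 genes higher by tags, 370 and 49 in TE, a GC3 correlation of 0.081 and a tail median of -1.61 nt, the reverse of the main sign. In that pair the RNA difference of Cdc25a was 0.59 and the TE differences of Tpr, Golgb1, Pik3c2a, Dlg1 and Pnn were 0.042, 0.091, 0.65, 0.62 and 0.20, all reversed. The cause was not tested. Of the other values for single genes, 201 stayed within a set margin and 57 moved past it, in the same direction. For RNA, RPFs and TE the margin was the interval. Tails have no interval, so a fixed part of the difference served for them. Tail values without subtracting the median were all counted as moved.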
